A study of Mus musculus with 4 samples.

Results

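The Hippo-YAP genes examined here were Lats1, Lats2, Yap1, Wwtr1, Tead1, Tead2, Tead3, Amot, Amotl2 and Ccn2. They were taken by name as kinases, effectors, partner factors, inhibitors and a target of the pathway, and all 10 were found among the 50559 genes listed. RNA-seq compared mouse E14 embryonic stem cells (ESCs) given an siRNA against Cnot1 (siCnot1) with ESCs given a non-targeting siRNA (siNT), each at 150 nM and collected after 48 h, with 2 biological replicates per group. The methods describe ESCs grown on gelatin, without a feeder layer named, in serum replacement medium with leukemia inhibitory factor, which keeps mouse ESCs undifferentiated. Those cells carried a tdTomato transgene under the MERVL promoter, a reporter of 2-cell-like cells. The labels do not say whether these libraries came from that line. CNOT1 holds together the subunits of CCR4-NOT, a deadenylase that shortens poly(A) tails and so starts mRNA decay.

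The Hippo pathway holds back growth. The MST kinases activate the LATS kinases, which phosphorylate the coactivators YAP (Yap1) and TAZ (Wwtr1), and the phosphorylated proteins are retained in the cytoplasm or degraded. When the kinases are inactive, YAP and TAZ enter the nucleus and bind TEAD factors at their target genes. Angiomotins are junction proteins that bind YAP and promote its phosphorylation. In the preimplantation embryo, TEAD4 and YAP drive the trophectoderm programme of the outer cells, while the inner cells from which ESCs derive keep YAP out of the nucleus. Since the pathway acts largely through phosphorylation and location of proteins, the mRNA levels of its parts show their supply and not its activity.

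TEAD factors bind the element GGAATG, which reads CATTCC on the other strand. RefSeq promoter windows (GRCm38.p6, from 250 bases before to 50 after a start site) were given for 8 of the 10 genes. At least 1 element, on either strand, lay in a window of 5 of these 8 genes, and in 16.6% of the 27025 genes with a window. The windows of Lats1, Tead2 and Amot held none of these letters. The 30 bases around 1 element of each of the 5 genes are shown because Lats2 and Amotl2 are themselves known targets of YAP and TEAD. They are written 5′ to 3′ on the gene's strand, with the element in capitals. The Lats2 copy (chr14:57746102-57746131, minus strand) begins 4 bases past the start site, and the copies of Yap1 (chr9:8004720-8004749, minus), Wwtr1 (chr3:57576029-57576058, minus), Tead3 (chr17:28350970-28350999, minus) and Amotl2 (chr9:102717727-102717756, plus) lie 141, 136, 182 and 65 bases before a start site.
Lats2: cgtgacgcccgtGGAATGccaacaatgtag
Yap1: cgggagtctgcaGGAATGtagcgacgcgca
Wwtr1: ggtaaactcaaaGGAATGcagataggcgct
Tead3: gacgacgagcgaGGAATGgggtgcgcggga
Amotl2: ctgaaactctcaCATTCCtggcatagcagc
A match describes the letters only, since TEAD binding was not measured here.

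CCR4-NOT is also recruited to mRNAs by microRNAs, and mouse ESCs are known for the miR-290 and miR-302 clusters, several of which share a seed (bases 2 to 8). The mature RefSeq sequences with that seed are shown with the seed in capitals.
mmu-miR-291a-3p: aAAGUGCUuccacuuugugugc
mmu-miR-294-3p: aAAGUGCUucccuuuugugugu
mmu-miR-295-3p: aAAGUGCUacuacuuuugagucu
mmu-miR-302b-3p: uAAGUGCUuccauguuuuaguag
mmu-miR-302d-3p: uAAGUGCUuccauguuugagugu
The complement of the seed, AGCACTT, was counted in the longest annotated 3′ UTR of each gene (GENCODE M21, GRCm38, transcript strand). It occurred at 2 places in the 1626-base UTR of Lats2, once in Lats1 and once in Wwtr1, and not in the other 7 genes. Among 2890 UTRs within 20% of the length of that of Lats2, 18% held it at least once, and of all 20657 UTRs 14.9% did. For UTRs of like length to those of Lats1 and Wwtr1 the shares were 33.3% and 31.9%. For the 7 genes without it they ran from 6.84% (Tead2) to 60.8% (Tead1). The copies in Lats2 begin at UTR positions 195 (chr14:57691076-57691104) and 294 (chr14:57690977-57691005), both on the minus strand, and are shown with the match in capitals.
Lats2 position 195: agtatggaaagAGCACTTattttgtggat
Lats2 position 294: ttgtatctgatAGCACTTgtccacagcta
The Pumilio element TGTANATA was found in 7 of the 10 UTRs (Lats1, Lats2, Wwtr1, Tead1, Amot, Amotl2 and Ccn2) and in 23.6% of all UTRs. Among UTRs within 20% of the length of each of these 7, it was in 28.6% (Ccn2) to 75.9% (Tead1). The AU-rich element TATTTAT was found in 6 (Lats1, Lats2, Wwtr1, Tead1, Tead2 and Tead3) and in 28.1% of all UTRs, and in 18.6% (Tead2) to 83.1% (Tead1) of UTRs of like length. The 2498-base UTR of Yap1 held none of the 3 motifs. These motifs were searched with the values below already known, and microRNAs were not measured in these libraries.

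The 4 libraries held 32135824 to 32557440 counts on genes, so that 3 counts, taken as the limit of detection, correspond to a CPM, the count scaled to a common library size, of 0.0921 to 0.0934. Such limits cover counting error only. The knockdown was present in both siCnot1 libraries. Cnot1 had 28397 and 30903 counts in siNT and 6188 and 6425 in siCnot1, which was 5.04-fold lower (adjusted p = 2.37e-18, edgeR). The ESC label held by its markers. All 8 pluripotency markers were detected, with a sum of 6564 to 6784 CPM in siNT and 5526 to 5868 in siCnot1, and 6 of the 8 fell. Trophectoderm markers, which matter here because TEAD4 drives that programme, summed to 97.4 to 100 CPM in siNT and 70.4 to 76.3 in siCnot1. Of the 7 of 8 tested, 3 fell (Krt8, Krt18 and Tfap2c), while Cdx2 was at 4 to 20 counts in every library. Tfap2c was the largest part of that sum, with a mean of 58.2 CPM in siNT and 41.6 in siCnot1. Cdx2, Eomes, Gata3 and Hand1 were not called, with log2 fold changes of 0.74, 0.13, -0.61 and -0.27. Primitive endoderm markers summed to 12.6 to 14.8 and 22.1 to 22.9 CPM, with 2 of 6 higher (Pdgfra and Dab2). Fibroblast markers summed to 33.3 to 34.9 and 46.8 to 51.2 CPM, with 3 of 6 tested higher (Col1a1, Pdgfrb and Twist1), and Col3a1 was at 0 in every library. The 2-cell-like markers, of which 8 of 9 rose, summed to 77.3 to 78.5 and 208 to 214 CPM. Markers that rose or fell are those called at an adjusted p of 0.05 (edgeR). Of all tested genes, 15% were called higher and 14.7% lower. These marker sums differed between the groups, and their part in the results below was not tested. In such bulk libraries, fewer cells of a type and less RNA per cell cannot be told apart.

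Of the 10 Hippo-YAP genes, all passed the filter on low counts. Lats2 rose in siCnot1, Tead2 fell by a small amount, and the other 8 did not pass an adjusted p of 0.05 (edgeR quasi-likelihood test, Benjamini-Hochberg over 18144 genes). The background of the comparison was wide, with 15% of all tested genes called higher and 14.7% called lower, so 1 of 10 in each direction is near the background. At the thresholds of the study, an unadjusted p of at most 0.05 and a log2 fold change of at least 1 in size, 6.18% of tested genes were higher and 1.8% were lower. None of the 10 genes passed these thresholds in edgeR, and the same count of 0 was found with DESeq2 and with limma-voom. The median log2 fold change of the 10 genes was 0.03, with a range from -0.18 to 0.69, and that of all tested genes was 0.01. After scaling, both siCnot1 libraries were above both siNT libraries for 4 of the 10 genes (Lats2, Yap1, Wwtr1 and Amot) and below them for 2 (Tead1 and Tead2). Among all tested genes these shares were 32.7% and 31.3%.

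**Figure D1:**
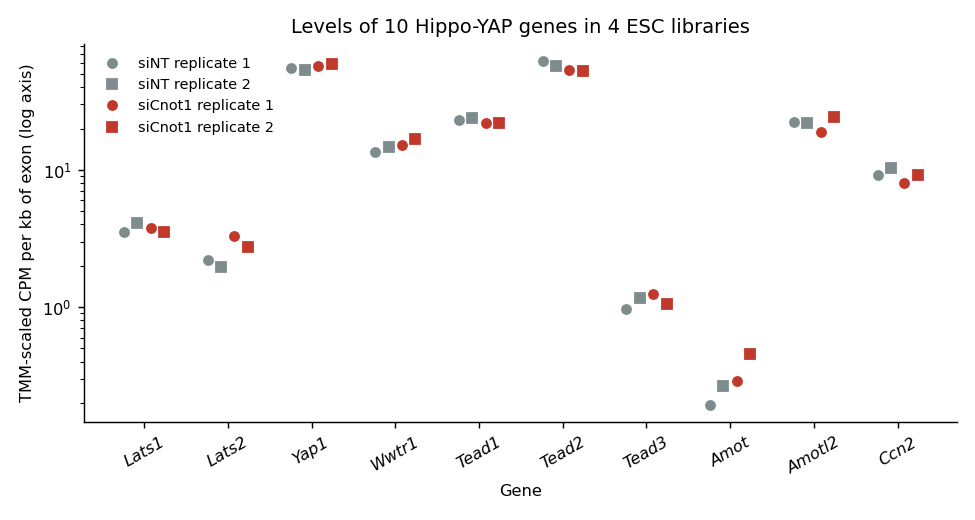
Level of each of the 10 genes in each of the 4 libraries, as TMM-scaled CPM per kb of exon on a log axis (grey, siNT; red, siCnot1; circles, replicate 1; squares, replicate 2). The genes span from 0.194 to 61.9 CPM per kb in siNT, and for most genes the 4 points lie close together beside the distance between genes.

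The 10 genes were present at very different levels, compared here per kb of exon. In siNT, Tead2 was the highest at 59.7 ± 3.15 CPM per kb (SD, n = 2), followed by Yap1 at 54.4 ± 1.32. Tead1 (23.4 ± 0.589) and Amotl2 (22.2 ± 0.303) came next, then Wwtr1 (14.1 ± 0.815) and Ccn2 (9.71 ± 0.815). Lats1 was at 3.83 ± 0.418, Lats2 at 2.08 ± 0.191, Tead3 at 1.07 ± 0.137 and Amot at 0.231 ± 0.0525. No neighbours in this order had overlapping libraries in siNT. The upper part of the order changed in siCnot1. There Yap1, at 56.7 and 59.5 CPM per kb, was above Tead2, at 53.7 and 52.8, and Amotl2, at 18.9 and 24.2, lay on both sides of Tead1, at 22.1 and 22.0. The lower 6 genes kept their order in siCnot1. Among the 10 genes, the parts abundant per kb were thus the coactivators, Tead1, Tead2 and Amotl2, while both LATS kinases, Tead3 and Amot were scarce.

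**Figure D2:**
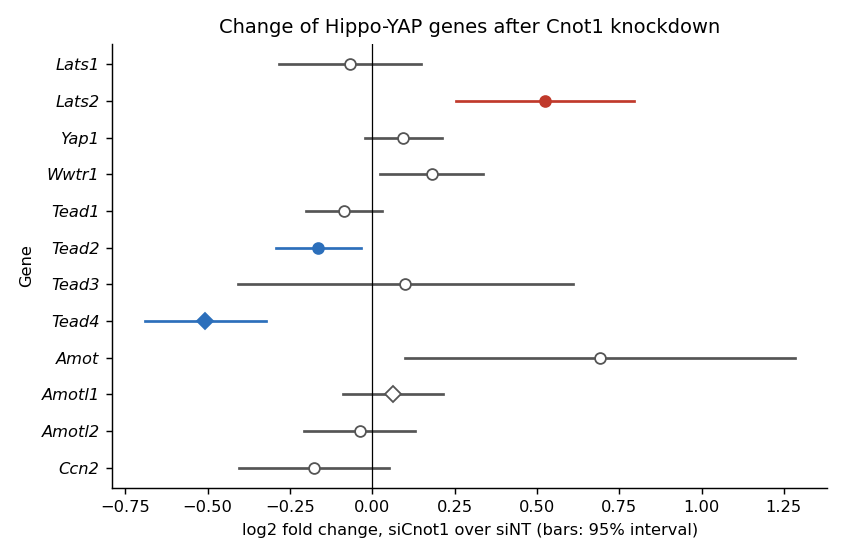
log2 fold change of siCnot1 over siNT for the 10 genes (circles) and their paralogs Tead4 and Amotl1 (diamonds), with 95% intervals from edgeR (red, called higher; blue, called lower; open grey, not called). Lats2 lies at 0.52 and Tead4 at -0.51, while most other intervals cross 0. The widest interval is that of Amot, from 0.10 to 1.28, which leaves out 0, as do those of Wwtr1 and Tead2.

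LATS1 and LATS2 are the kinases that phosphorylate YAP and TAZ. Lats2 (GRCm39 chromosome 14, 57927119 to 57983669, minus strand, 9 exons) had 390 and 345 counts in siNT and 620 and 514 in siCnot1. Both siCnot1 libraries were above both controls. Mean CPM was 11.8 ± 1.08 for siNT and 16.9 ± 2.22 for siCnot1 (SD, n = 2), a rise of 1.44-fold with a 95% interval of 1.19 to 1.74 (log2 fold change 0.52, SE 0.131, adjusted p = 0.00369, edgeR). The call did not hold in 3 of the 4 fits that left out 1 library. Without siNT replicate 1, siNT replicate 2 or siCnot1 replicate 1, the rise had an adjusted p of 0.0856, 0.146 and 0.140 in edgeR, and without siCnot1 replicate 2 it had 0.0213. It was also lost without a filter on low counts (adjusted p = 0.0754, edgeR), where 30308 genes were tested. Its direction was the same in all 12 alternatives. The fit without that filter and the fits that left out 1 library also called fewer of all tested genes higher. Lats2 shares 323 bases, or 5.72% of its exon length, with Gm52140 on the other strand, which had at most 2 counts in any library.

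Lats1 (chromosome 10, 7556964 to 7592225, plus strand, 9 exons) had 801 and 942 counts in siNT and 921 and 863 in siCnot1, and the groups overlapped. Its log2 fold change of -0.07 had a 95% interval from -0.28 to 0.15 (adjusted p = 0.685, edgeR), and it was 0.041 with library totals. Lats1 shares 138 bases, or 1.89% of its exon length, with Pcmt1 on the other strand. Within each library, on counts per kb of exon, Lats2 made up 38.6% and 32.1% of the sum of both kinases in siNT and 46.5% and 43.5% in siCnot1. Such a share does not depend on scaling between libraries, and it was higher in both siCnot1 libraries. No test was run on the within-library shares, which are given as a description.

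**Figure D3:**
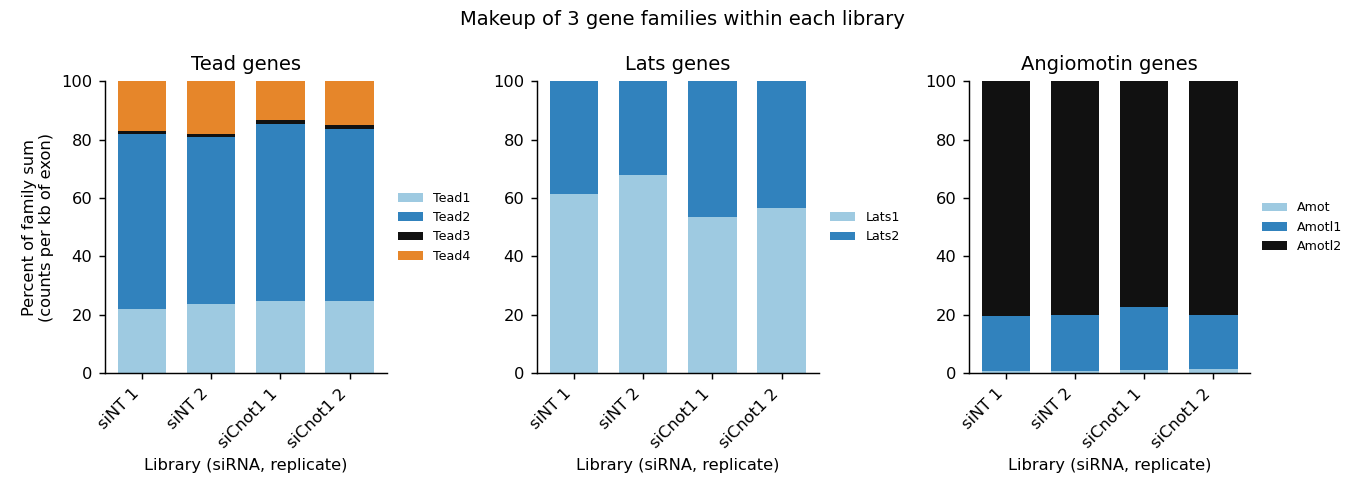
Makeup of the Tead, Lats and angiomotin families in each library, as a percent of the family's counts per kb of exon. Lats2 takes 38.6% and 32.1% of the Lats sum in siNT and 46.5% and 43.5% in siCnot1, and Tead4 takes 17.1% and 18.1% of the Tead sum in siNT and 13.2% and 15.2% in siCnot1.

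Yap1 and Wwtr1 encode the coactivators YAP and TAZ. Yap1 (chromosome 9, 7932000 to 8004890, minus strand, 9 exons) had 7726 and 7522 counts in siNT and 8517 and 8931 in siCnot1. The siCnot1 libraries were higher in both cases, by little. Its log2 fold change was 0.09, with a 95% interval from -0.02 to 0.21 (adjusted p = 0.232, edgeR), so a change larger than 1.16-fold upwards lay outside the interval. Scaling by library totals in place of TMM gave a log2 fold change of 0.20 and a call (adjusted p = 0.00678, edgeR). That scaling moved the median of all tested genes to 0.12 on the log2 scale, from 0.01, and raised the share of higher calls among all called genes from 50.5% to 71.9%.

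Wwtr1 (chromosome 3, 57363065 to 57483331, minus strand, 7 exons) had 2013 and 2201 counts in siNT and 2423 and 2699 in siCnot1, with no overlap after scaling. Mean CPM was 67.4 ± 3.90 for siNT and 76.4 ± 5.88 for siCnot1 (SD, n = 2). The log2 fold change was 0.18 (95% interval 0.03 to 0.34, adjusted p = 0.0745, edgeR). It was called with upper-quartile scaling (adjusted p = 0.0473), library totals (adjusted p = 0.00491) and a filter of 1 CPM (adjusted p = 0.0392), all in edgeR, and not in the other 9 alternatives. Yap1 exceeded Wwtr1 per kb by 4.10 and 3.65 times in siNT and by 3.75 and 3.53 times in siCnot1, and these ratios overlapped between the groups.

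TEAD factors carry YAP and TAZ to DNA. Tead2 (chromosome 7, 44865216 to 44882892, plus strand, 12 exons) had 4547 and 4251 counts in siNT and 4251 and 4172 in siCnot1, with the same count in siNT replicate 2 and siCnot1 replicate 1. After TMM scaling these became 146 and 136 CPM in siNT and 127 and 125 CPM in siCnot1, which did not overlap. Tead2 was 10.7% lower, with a fold of 0.893 (95% interval 0.817 to 0.976) and a log2 fold change of -0.16 (SE 0.0619, adjusted p = 0.0496, edgeR). This call sat at the threshold. It held with DESeq2's size factors and with the filter of 1 CPM, and was lost in the other 10 alternatives, with adjusted p-values from 0.0505 (limma-voom) to 0.532 (edgeR with library totals). With the replicate number as a block the adjusted p was 0.0800 (edgeR). Leaving out siNT replicate 1, siNT replicate 2, siCnot1 replicate 1 and siCnot1 replicate 2 gave adjusted p-values of 0.280, 0.0767, 0.186 and 0.237 in edgeR. The direction was lower in all 12.

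Tead1 (chromosome 7, 112278563 to 112505991, plus strand, 14 exons) had 7091 and 7403 counts in siNT and 7343 and 7305 in siCnot1. These raw counts overlapped, and after scaling both siCnot1 libraries (219 and 218 CPM) were below both controls (228 and 236 CPM). The log2 fold change was -0.09 (95% interval -0.20 to 0.03, adjusted p = 0.279, edgeR), and it was 0.022 with library totals. Tead3 (chromosome 17, 28550645 to 28569779, minus strand, 15 exons) had 91 and 110 counts in siNT and 125 and 106 in siCnot1, which overlapped (log2 fold change 0.10, adjusted p = 0.809, edgeR). At this depth its interval, from -0.41 to 0.61, left changes of up to 1.53-fold possible.

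Tead4, the fourth TEAD gene and the one tied to trophectoderm, was named as the paralog that completes the family. It had 1698 and 1752 counts in siNT and 1206 and 1397 in siCnot1. Both siCnot1 libraries were below the controls, and Tead4 was 1.42-fold lower (log2 fold change -0.51, SE 0.0889, adjusted p = 1.27e-04, edgeR). It was called lower in 11 of 12 alternatives and lost without siNT replicate 1 (adjusted p = 0.0541, edgeR). Within each library Tead4 made up 17.1% and 18.1% of the Tead sum per kb in siNT and 13.2% and 15.2% in siCnot1. Tead1 made up 22.2% and 23.7% in siNT and 24.9% and 24.6% in siCnot1, and the share of Tead2, at 57.1% to 60.5% over the 4 libraries, overlapped between the groups. Per kb of exon, Tead2 was thus the main TEAD transcript in every library. By counts Tead1 was above Tead2 in each, and the order per kb rests on exon lengths of 9905 bases for Tead1 and 2359 for Tead2. Which transcripts of these genes the cells made was not measured.

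Angiomotins bind YAP and activate LATS at cell junctions. Amotl2 (chromosome 9, 102594290 to 102610616, plus strand, 12 exons) had 3394 and 3354 counts in siNT and 3088 and 3957 in siCnot1. The siCnot1 libraries lay on both sides of the controls, and their SD of 18.4 CPM was far wider than the 1.48 CPM of siNT. The log2 fold change was -0.04 (95% interval -0.21 to 0.13, adjusted p = 0.776, edgeR). It was 0.068 with library totals, 0.13 without siCnot1 replicate 1 and -0.24 without siCnot1 replicate 2, so its sign changed with the scaling and with the library left out.

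Amot (chromosome X, 144229420 to 144288962, minus strand, 16 exons) was the lowest of the 10 genes, with 56 and 78 counts in siNT and 90 and 142 in siCnot1. The groups did not overlap. Mean CPM was 2.14 ± 0.486 for siNT and 3.46 ± 1.10 for siCnot1 (SD, n = 2). The fold was 1.61 with an interval from 1.07 to 2.43, and the log2 fold change of 0.69 was the largest in size of the 10 genes but had an adjusted p of 0.0730 (SE 0.286, edgeR). With library totals it was called (adjusted p = 0.0381, edgeR). Over the alternatives its log2 fold change ran from 0.32 to 0.98. The paralog Amotl1, with 1972 and 1960 counts in siNT and 2156 and 2246 in siCnot1, had a log2 fold change of 0.06 (adjusted p = 0.575, edgeR). Amotl2 was the main angiomotin transcript, with 77.1% to 80.5% of the family sum per kb, and Amot took 0.699% and 0.981% in siNT and 1.18% and 1.51% in siCnot1.

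Ccn2 encodes a secreted matrix protein and is the usual readout of YAP and TEAD activity. Ccn2 (chromosome 10, 24471340 to 24474581, plus strand, 5 exons) had 683 and 775 counts in siNT and 647 and 735 in siCnot1, and the groups overlapped. Its log2 fold change of -0.18 had a 95% interval from -0.41 to 0.05 (adjusted p = 0.247, edgeR), which leaves out a rise above 1.04-fold. It was below 0 in all 12 alternatives and called in none. The 148 bases that Ccn2 shares with Gm15270 on the other strand, 6.16% of its exon length, had no count for that gene in any library. Ccn1, a related matrix protein and the other usual readout, chosen here after its values were seen, had 980 and 993 counts in siNT and 1225 and 1265 in siCnot1 (log2 fold change 0.24, adjusted p = 0.0571, edgeR). Per kb, Ccn1 exceeded Ccn2 by 1.70 and 1.52 times in the siNT libraries and by 2.24 and 2.04 times in siCnot1, without overlap.

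**Figure D4:**
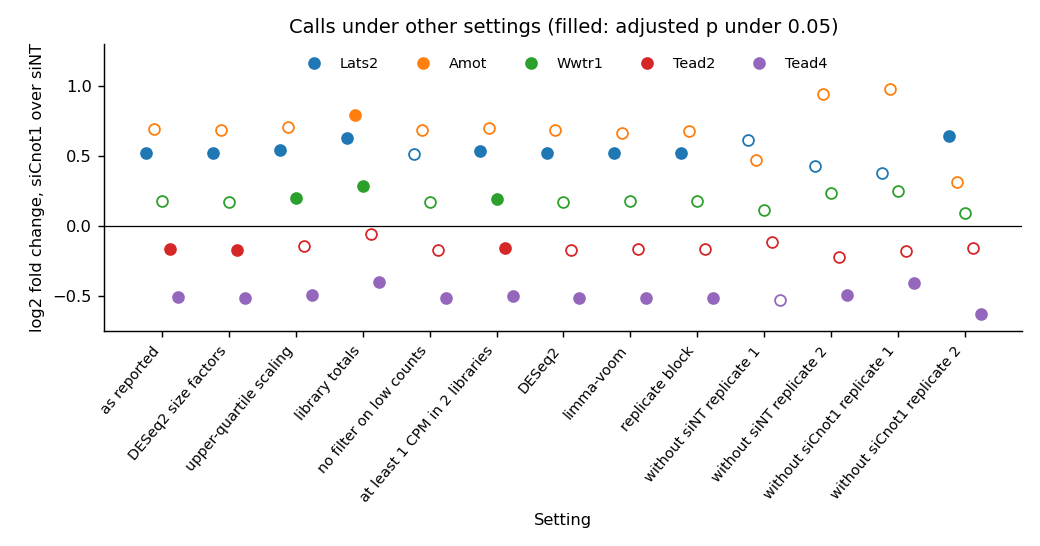
Log2 fold change of siCnot1 over siNT for Lats2, Amot, Wwtr1, Tead2 and Tead4 in the reported fit and in each of 12 alternatives along the x axis (filled, adjusted p under 0.05; open, not called). Lats2, Amot and Wwtr1 lie above 0 and Tead2 and Tead4 below 0 at every point, while the fill of each of these genes changes between settings.

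A list of 39 other Hippo pathway genes set the 10 in context. Of these, 36 were tested, 5 were called higher, 9 lower and 22 neither, beside 15% and 14.7% of all tested genes, with a median log2 fold change of -0.10. Each fit that left out 1 library called fewer of the 36 higher, and also fewer of all tested genes. None of the 5 core kinases and adaptors (Stk3, Stk4, Sav1, Mob1a and Mob1b) was called (edgeR). Their log2 fold changes ran from -0.17 to 0.09. Among 14 tested upstream regulators, 4 fell and 1 rose. Frmd6, a FERM domain protein that activates the pathway, went from 1743 and 1808 counts to 1217 and 1329 (log2 fold change -0.58, adjusted p = 1.58e-05, edgeR). Wwc1, the KIBRA scaffold of LATS, fell by 0.39 on the log2 scale (adjusted p = 4.87e-04, edgeR). Dchs1, a large cadherin, rose from 8 and 16 counts to 40 and 41 (log2 fold change 1.65, adjusted p = 0.0198, edgeR).

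Of 7 inhibitors of the LATS kinases, Ajuba and Strn3 rose and none fell. The shares of all tested genes, 15% higher and 14.7% lower, are the background for this small list and the next. Ajuba, a LIM protein that restrains LATS, had 5335 and 5150 counts in siNT and 6898 and 7404 in siCnot1 (log2 fold change 0.35, adjusted p = 9.64e-05, edgeR). Strn3, a part of the STRIPAK phosphatase complex that dephosphorylates the MST kinases, had a log2 fold change of 0.36 (adjusted p = 1.29e-04, edgeR). Of 11 partners, inhibitors and turnover factors of YAP and TAZ, 9 were tested, 5 fell and 2 rose. Ywhaz and Ywhae, the 14-3-3 proteins zeta and epsilon that hold phosphorylated YAP in the cytoplasm, fell by 0.42 and 0.31 on the log2 scale (adjusted p = 2.96e-06 and 6.63e-05, edgeR). Tead4, Csnk1e and Btrc were the other 3 that fell. Vgll3, a cofactor of TEAD, rose from 18 and 24 counts to 90 and 92 (log2 fold change 2.01, adjusted p = 1.37e-04, edgeR), and Ptpn14, a phosphatase that binds YAP, had a log2 fold change of 0.31 (adjusted p = 0.00123, edgeR).

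**Figure D5:**
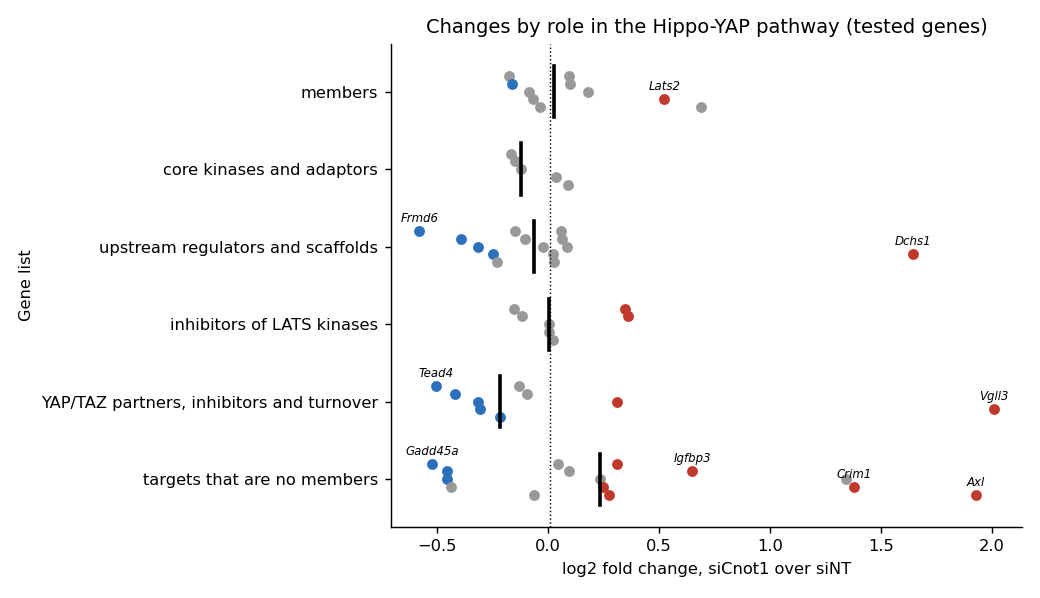
Log2 fold change of siCnot1 over siNT for each tested gene, by list, with the 10 genes in the top row (red, called higher; blue, called lower; grey, not called; black bar, median of the list; dotted line, median of all tested genes). In the bottom row, the targets outside the 10 genes, called genes lie on both sides of 0, from Gadd45a at -0.52 to Axl at 1.93.

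A signature of 22 known YAP, TAZ and TEAD targets includes Ccn2, Amotl2 and Lats2. Of the other 19 targets, 15 were tested, 6 rose and 3 fell, where 15% of all tested genes were called higher and 14.7% lower. Their median log2 fold change was 0.24, beside 0.01 for all tested genes. The number that rose in the whole signature, 7 of 18 tested, was 4 of 22 without a filter on low counts. There 1303 of 30308 tested genes were called higher, against 2719 of 18144. Each fit that left out 1 library called fewer genes of the signature higher, and also fewer of all tested genes. Axl, a receptor tyrosine kinase, rose from 21 and 30 counts to 110 and 99 (log2 fold change 1.93, adjusted p = 1.00e-04, edgeR). Crim1, a transmembrane regulator of BMP, rose from 82 and 120 counts to 321 and 242 (log2 fold change 1.38, adjusted p = 2.82e-05, edgeR). Igfbp3, a carrier of insulin-like growth factors, had a log2 fold change of 0.65 (adjusted p = 4.49e-04, edgeR). Myof, a membrane repair protein, and Gadd45a, a stress response gene, fell by 0.46 and 0.52 on the log2 scale (adjusted p = 5.50e-06 and 2.21e-04, edgeR). F3, tissue factor, fell by 0.46 on the log2 scale (adjusted p = 0.0336, edgeR). Ankrd1, a further common readout chosen after its values were seen, had 6 to 9 counts in every library and was not tested, and Ccdc80 was at or under the limit of 3 counts in each. Of the 13 targets outside the 10 genes that had a RefSeq promoter window, 5 held the TEAD element, beside 16.6% of all genes with a window. These were Axl, Crim1 and Ptpn14, which rose, Ccn1, which was not called, and Ankrd1, which was not tested. Genes of the signature thus moved in both directions, with Ccn2 and Amotl2 among those that did not pass the test.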

How the data were processed

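The authors made poly(A)+ libraries with dUTP strand marking and deposited raw counts per gene, neither normalized nor pooled. The submitters' processing notes name fastp 0.19.4, HISAT2 2.2.1 and DESeq2 1.40.2 and the build mm10, while the deposited positions are those of GRCm39. The counter and its strand setting are not given in the sources used here. The deposited exon length was used for CPM per kb. Groups and replicate numbers came from the sample titles, and dose and time from the methods.

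Counts were tested in R 4.3.3 with edgeR 4.0.16 (filterByExpr with a minimum count of 10, TMM, quasi-likelihood test, two-sided, condition as the only term), with Benjamini-Hochberg adjustment over 18144 genes. Values per library are TMM-scaled CPM. The TMM factors were 0.964 and 0.963 for the siNT libraries and 1.04 and 1.03 for the siCnot1 libraries. Rises and falls are thus relative to the bulk of genes, and a change shared by all mRNAs would not be seen. The 10 genes, the pathway, target and marker lists and the tests were chosen with earlier results of these data known. Named genes were the 10, Cnot1, Tead4, Amotl1, at most 3 per list and direction with the smallest adjusted p, and targets at or under 3 counts. Genes named to complete a count, Ccn1, Ankrd1 and the 3′ UTR motifs were chosen after values were seen.

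Alternatives were DESeq2 size factors, upper-quartile scaling or library totals, no filter on low counts, a filter of 1 CPM in 2 libraries, DESeq2 1.42.0 or limma-voom (limma 3.58.1) as the tool, a replicate block, and leaving out each library. The fits were tested on simulated data. Replicate numbers marked no shared culture in the labels. Protein sequences were not analysed here, and 1 gene that the naming rule selected is not reported here. RefSeq and GENCODE sequences were joined by gene symbol, and GRCm38 positions were not set against the deposited ones.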

Additional observations from a re-analysis of the deposited data

How the results depend on the processing

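Of the 10 Hippo-YAP genes, 1 was called higher and 1 lower in the reported fit. The number called higher was 2 with upper-quartile scaling, 4 with library totals, 0 without a filter on low counts and 2 with at least 1 CPM in 2 libraries, and it ranged from 0 to 1 over the 4 fits that left out 1 library. The number called lower was 0 with upper-quartile scaling, library totals, no filter, DESeq2, limma-voom and the replicate block, and 0 in each fit that left out 1 library. None of the 10 passed the thresholds of the study under any alternative. Among all 18144 tested genes, 2719 were called higher and 2668 lower in the reported fit. These numbers were 2918 and 2430 with upper-quartile scaling, and 3999 and 1563 with library totals. They were 1303 and 1450 of 30308 without a filter, and 2802 and 2644 of 14767 with the filter of 1 CPM. Each fit that left out 1 library also called fewer of all tested genes in each direction. Among the wider pathway genes 8 were called higher with library totals, against 5, and 3 to 4 when 1 library was left out. In the target signature 4 were called higher without a filter, against 7, and 1 to 4 when 1 library was left out. The log2 fold changes of 4 genes that were not called changed sign. With library totals, Lats1 was at 0.041, Tead1 at 0.022 and Amotl2 at 0.068. When 1 library was left out, Lats1 ranged from -0.18 to 0.048, Tead3 from -0.030 to 0.24 and Amotl2 from -0.24 to 0.13. Library totals raise every value by about the shift of the median. A fit with 1 library left out takes the spread from the other group and assumes that the lone library varies alike. For the other changes the cause was not tested. Same-numbered libraries did not deviate together (correlation -0.0136 over 18144 genes), so the numbers were not taken as pairs. With the replicate block, 2524 genes were called higher and 2431 lower, against 2719 and 2668, 1 of the 10 was higher and 0 lower, and Tead2 had an adjusted p of 0.0800 (edgeR). At this depth the intervals of Amot and Tead3 stay wide.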
